A study of Mus musculus with 35 samples.

Results

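The 9 genes described here are Gstm1 and 8 other genes of the antioxidant response governed by the transcription factor NRF2: Gsta4, Nqo1, Gclc, Gclm, Txnrd1, Hmox1, Srxn1 and Nfe2l2, the last of which encodes NRF2 itself. They were taken by symbol from the 31053 genes counted in 35 libraries, and all 9 passed the filter on low counts in each of the 3 crosses. The libraries are QuantSeq 3′ mRNA libraries of whole kidneys of C57BL/6 mice of both sexes at postnatal day 2, so reads lie near transcript 3′ ends. Flcn KO kidneys (5 libraries; Flcn flox/flox; Ksp-cre+) were set against 5 libraries labelled control Flcn. Flcn/Tfeb DKO kidneys (4 libraries; Ksp-cre+, with Flcn and Tfeb each flox/flox) were set against 3 labelled control Flcn/Tfeb. Flcn/Tfe3 DKO kidneys (10 libraries; Flcn flox/flox; Ksp-cre+; Tfe3 -/- in every cell) were set against 8 labelled control Flcn/Tfe3. The paper gives Flcn flox/flox as its control genotype. The labels name the controls only by their cross, so the Tfeb and Tfe3 alleles of the controls are not given in the sources used here. Ksp-cre is driven by the Cdh16 promoter, which is active in the collecting duct, the distal tubule and the thick ascending limb, so the other cells of these kidneys keep Flcn.

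NRF2 is a basic leucine zipper factor that KEAP1 holds in the cytoplasm and hands to the proteasome. When electrophiles or peroxides modify KEAP1, NRF2 accumulates, pairs with a small MAF protein and binds antioxidant response elements near genes for glutathione synthesis, thioredoxin reduction and the conjugation of electrophiles. In the kidney this programme is known for its part in the defence of tubules against oxidants and in the clearance of xenobiotics. FLCN, the protein lost in Birt-Hogg-Dubé syndrome, holds back the transcription factors TFEB and TFE3, and the study asked how far each of these accounts for what follows the loss of Flcn. The crosses with Tfeb and Tfe3 therefore place the NRF2 genes beside the loss of Flcn with and without each factor.

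Start-site windows from RefSeq (GRCm38.p6, 250 bases before to 50 after the start) were matched to 6 of the 9 genes, as 9 windows, and Gsta4, Gclc and Hmox1 had no entry. The windows of the 3 genes on which the results below turn are shown, for Gstm1 1 of its 2 overlapping windows, 5′ to 3′ on the strand of the gene. Capitals mark matches on either strand to TGACNNNGC, the core of the antioxidant response element, or TGACTCA, the core shared by AP-1 and NF-E2 type factors. CACGTG, the E-box at the centre of the CLEAR motif of TFEB and TFE3, was searched as well. A TGACTCA followed by GC matches both of the former.
Gstm1, chr3:108017924-108018223, minus strand: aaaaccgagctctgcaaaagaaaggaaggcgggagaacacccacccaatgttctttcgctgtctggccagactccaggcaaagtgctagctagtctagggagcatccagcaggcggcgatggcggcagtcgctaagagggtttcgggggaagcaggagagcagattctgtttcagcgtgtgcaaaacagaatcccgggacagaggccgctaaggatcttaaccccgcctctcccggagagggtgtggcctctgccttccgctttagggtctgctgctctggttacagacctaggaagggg
Srxn1, chr2:152105274-152105573, plus strand: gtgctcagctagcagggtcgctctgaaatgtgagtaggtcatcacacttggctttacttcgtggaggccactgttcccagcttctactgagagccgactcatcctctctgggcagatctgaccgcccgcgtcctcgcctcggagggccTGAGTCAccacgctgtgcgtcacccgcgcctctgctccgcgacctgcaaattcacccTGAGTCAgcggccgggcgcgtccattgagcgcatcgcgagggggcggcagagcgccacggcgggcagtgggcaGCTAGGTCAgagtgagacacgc
Nqo1, chr8:107403156-107403455, minus strand: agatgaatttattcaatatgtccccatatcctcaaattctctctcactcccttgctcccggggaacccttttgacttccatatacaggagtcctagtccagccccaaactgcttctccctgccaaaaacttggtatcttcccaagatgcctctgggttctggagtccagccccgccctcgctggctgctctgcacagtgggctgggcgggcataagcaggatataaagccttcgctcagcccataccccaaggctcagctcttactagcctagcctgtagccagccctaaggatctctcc
The Srxn1 window held 2 matches to TGACTCA, read as TGAGTCA on the plus strand, at −102 to −96 and −45 to −39 from the start, and 1 match to TGACNNNGC at 28 to 36. Neither the windows of Gstm1 (2) nor that of Nqo1 held any of the 3 motifs. TGACNNNGC was also found in Gclm (−134 to −126), in 1 of the 3 Txnrd1 windows (−92 to −84) and in Nfe2l2 (−240 to −232), and CACGTG in none of the 9 windows. Of all 32851 windows, 12.4% held TGACNNNGC, 5.20% TGACTCA and 7.15% CACGTG. These are matches of letters in a short window, and a match or its absence shows nothing about binding.

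Library totals ran from 1652649 to 4239356 counts (median 2992169), and a count of 0 allows up to 0.708 to 1.82 CPM, counting error only. Levels are given as CPM, counts scaled to TMM-adjusted library totals, and are compared within a gene only. The Flcn and Flcn/Tfeb libraries are called set A. The Flcn/Tfe3 libraries were deposited in 2 tables, here set B (6 DKO, 3 control) and set C (4 DKO, 5 control). In set A, 3 controls stood apart by a low share of mitochondrial counts: control Flcn 4 and 5 at 4.88% and 4.93% and control Flcn/Tfeb 3 at 4.47%, against 9.16% to 11.1% in the other controls of those crosses. It was 1.79% to 7.80% throughout the Flcn/Tfe3 cross, so the term low share is used of these 3 controls against their own crosses only. The 3′ reads of Flcn do not test its deletion, as its log2 fold change was 0.09 in the Flcn, 0.11 in the Flcn/Tfeb and 0.20 in the Flcn/Tfe3 cross. Tfe3 in the Flcn/Tfe3 cross was at −0.09 and Tfeb in the Flcn/Tfeb cross at −0.73 (p = 0.078, adjusted p = 0.80, edgeR), so these genotypes rest on the labels. The labels do not say that each library is a different animal, so p-values measure the spread between libraries.

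Gstm1, a mu-class glutathione transferase that conjugates electrophiles to glutathione (ENSMUSG00000058135, mm10 chr3:108012255-108017973, minus strand, protein coding), was the only one of the 9 genes called in any of the 3 crosses. Its level was 98.6, 80.9, 95.6, 117 and 118 CPM in the 5 control Flcn libraries. In the 5 Flcn KO libraries it was 55.9, 58.3, 69.6, 60.2 and 81.9 CPM. The groups overlapped by 1 library on each side, the highest Flcn KO library lying just above the lowest control. Gstm1 fell by 36.1% in Flcn KO kidneys (mean 65.2 ± 10.7 CPM against 102 ± 15.6, SD, n = 5 each), a log2 fold change of −0.65 (SE 0.13, adjusted p = 0.033, edgeR quasi-likelihood test with Benjamini-Hochberg adjustment). The call takes 1 of the 9 members, where 0.52% of the 11932 genes tested were called, and Gstm1 had the 7th smallest p among lower genes. Gstm1 stands among the decreased genes of a list that the study drew from these same libraries, so its fall here is not independent evidence.

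The size of the fall in Flcn KO kidneys changed little with single libraries left out, and its call did not hold. With each of the 10 libraries left out in turn the log2 fold change stayed between −0.74 and −0.59, while the adjusted p ran from 0.014 to 0.11 and passed the threshold only without control 2 or without Flcn KO 5. The call was thus lost without control 1, 3, 4 or 5 and without Flcn KO 1, 2, 3 or 4. The controls of low mitochondrial share, 4 and 5, were the highest in Gstm1. Without both of them the log2 fold change was −0.48 (SE 0.14, p = 0.0019, adjusted p = 0.17, edgeR). With the mitochondrial share as a covariate it was −0.59 (SE 0.12, adjusted p = 0.0060, edgeR).

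In the Flcn/Tfeb cross Gstm1 was at 90.5, 63.0 and 156 CPM in the 3 controls. It was at 59.9, 68.6, 78.8 and 87.3 CPM in the 4 Flcn/Tfeb DKO libraries. The groups overlapped, because control 2 lay among the DKO libraries, and control 3, the highest of all 35 libraries, is the control of low mitochondrial share. The log2 fold change was −0.51 (SE 0.28, p = 0.091, adjusted p = 0.80, edgeR), which is not a call. Without control 2 it was −0.76, without control 3 −0.06, and with the mitochondrial share as a covariate 0.17. Neither a fall nor its absence can thus be read from this cross.

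In the Flcn/Tfe3 cross Gstm1 gave no such difference. In set B it was at 108, 108 and 91.5 CPM in the controls and ran from 78.8 to 104 CPM (median 99.4) in the 6 DKO libraries. In set C it was at 77.9, 75.1, 84.3, 81.0 and 63.5 CPM in the controls and at 89.3, 82.7, 88.5 and 98.4 CPM in the DKO libraries. The DKO libraries lay a little lower than their controls in set B and a little higher in set C, with overlap in both. The log2 fold change was 0.08 (SE 0.09, adjusted p = 0.90, edgeR), −0.09 in set B alone and 0.21 in set C alone.

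The effect on Gstm1, meaning the difference of a mutant from the controls of its own cross, was also compared between the crosses. In a DKO it may take in the loss of Tfeb or Tfe3 as well as that of Flcn. The Flcn/Tfe3 cross lies in sets B and C and the others in set A. A difference from the Flcn/Tfe3 cross thus cannot be told apart from a difference between sets. The effect in Flcn/Tfe3 DKO less that in Flcn KO was 0.73 (log2, SE 0.16, p = 6.0e-05, adjusted p = 0.29, edgeR interaction). None of the 13209 genes tested was called in that comparison (0%), and Gstm1 had the 2nd smallest p of them, while 7.4% had an unadjusted p under 0.05. The interaction stayed between 0.67 and 0.83 with each of the 28 libraries left out in turn, and was 0.56 (adjusted p = 1.0) without controls 4 and 5 of the Flcn cross. With set B alone it was 0.55 (adjusted p = 1.0) and with set C alone 0.88 (adjusted p = 0.033; 3.58% of all genes called), the only alternative under which it passed the threshold, so a difference between these crosses is not established over all genes. The effect in Flcn/Tfeb DKO less that in Flcn KO was 0.13 (SE 0.30, adjusted p = 0.96), but −0.12 without control Flcn/Tfeb 2 and 0.59 (p = 0.024, adjusted p = 0.63) without control Flcn/Tfeb 3. The effect in Flcn/Tfe3 DKO less that in Flcn/Tfeb DKO was 0.57 (SE 0.23, p = 0.020, adjusted p = 0.34). The latter was 0.82 without control Flcn/Tfeb 2, 0.14 without control Flcn/Tfeb 3 and 0.06 with the mitochondrial share as a covariate. It was called with no library left out in turn.

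Ordered by their mean, the groups of set A ran from Flcn KO (65.2 ± 10.7 CPM) through Flcn/Tfeb DKO (73.7 ± 11.9) to control Flcn (102 ± 15.6) and control Flcn/Tfeb (103 ± 47.6). The former pair and the latter pair each differed by less than their SD. Sets B and C were not ordered with set A, as the controls alone differed between sets B and C (103 ± 9.67 and 76.3 ± 7.96 CPM).

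**Figure D1:**
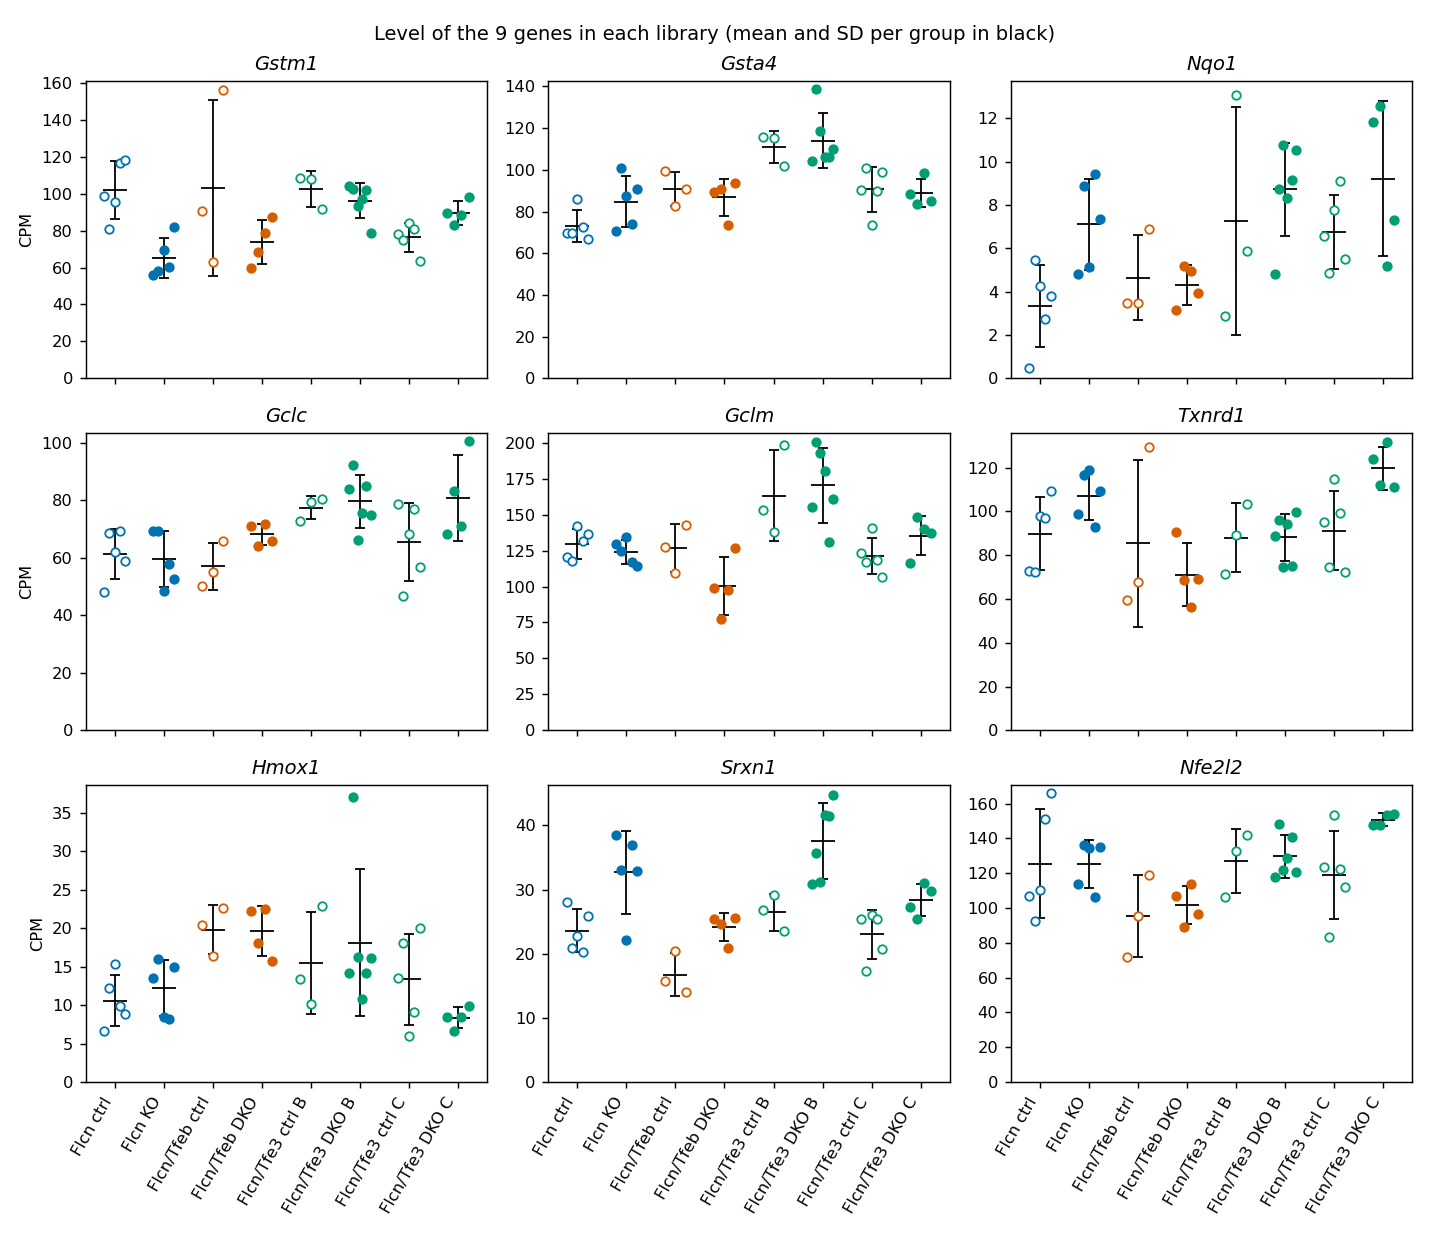
CPM of each of the 9 genes in each of the 35 libraries (open points, controls; filled points, KO or DKO; black, mean and SD of the group; B and C, sets of the Flcn/Tfe3 cross). Gstm1 lies lower in Flcn KO (55.9 to 81.9 CPM) than in its controls (80.9 to 118), and Srxn1 lies higher than in the controls in most mutant libraries of each cross.

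Srxn1, the sulfiredoxin that restores overoxidized peroxiredoxins (ENSMUSG00000032802, mm10 chr2:152105516-152111376, plus strand), was the member most alike in the 3 crosses, although no cross called it. In control Flcn it was at 28.1, 20.9, 22.8, 20.3 and 25.8 CPM. In Flcn KO it was at 38.6, 33.0, 22.1, 37.0 and 32.9 CPM. All Flcn KO libraries but 1 were above every control (log2 fold change 0.46, SE 0.17, p = 0.013, adjusted p = 0.38, edgeR). In the Flcn/Tfeb cross the controls were at 15.8, 20.4 and 14.1 CPM. The DKO libraries of that cross were at 25.4, 24.6, 20.9 and 25.6 CPM. These groups did not overlap (0.53, SE 0.23, p = 0.041, adjusted p = 0.80), which holds upward for 2.9% and downward for 2.74% of the 12469 genes tested in that cross, and Srxn1 was the only member so separated.

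In set B Srxn1 was at 26.7, 29.1 and 23.5 CPM in the controls and from 30.8 to 44.8 CPM (median 38.5) in the DKO libraries, without overlap, which in set B holds upward for 1.69% and downward for 1.28% of genes. In set C it was at 25.4, 17.4, 26.1, 25.5 and 20.8 CPM in the controls and at 27.3, 25.4, 31.0 and 29.8 CPM in the DKO libraries, where the lowest DKO library fell within the range of the controls. The log2 fold change over both sets was 0.41 (SE 0.12, p = 0.0017, adjusted p = 0.20, edgeR), 0.51 in set B and 0.27 in set C. Separation in both sets, which Srxn1 missed by that library, holds upward for 0.273% and downward for 0.0321% of the 12456 genes tested. No difference in Srxn1 between the crosses was resolved, the interactions being 0.07 (SE 0.27) for Flcn/Tfeb less Flcn, −0.05 (SE 0.19) for Flcn/Tfe3 less Flcn and −0.14 (SE 0.23) for Flcn/Tfe3 less Flcn/Tfeb. The 3 crosses share no library with each other. In each cross the log2 fold change stayed above 0 with every library left out in turn (0.40 to 0.58, 0.41 to 0.69 and 0.36 to 0.44), and with the mitochondrial share as a covariate it was 0.47, 0.33 and 0.37.

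Txnrd1, the cytosolic thioredoxin reductase (ENSMUSG00000020250, mm10 chr10:82833951-82897712, plus strand), overlaps 3 other annotated genes, 1 of them on its own strand, and reads there may be shared. It ran from 72.3 to 110 CPM in control Flcn and from 92.8 to 119 CPM in Flcn KO, so the groups overlapped (log2 fold change 0.25, SE 0.13, p = 0.064, adjusted p = 0.58, edgeR). It was 0.21 (SE 0.11, p = 0.068, adjusted p = 0.73) in the Flcn/Tfe3 cross, where set B alone gave 0.01 (SE 0.14) and set C alone 0.37 (SE 0.15, p = 0.021, adjusted p = 0.15). It was −0.29 (SE 0.27, adjusted p = 0.81) in the Flcn/Tfeb cross, the latter turning to 0.16 without control Flcn/Tfeb 3, at 129 CPM the highest of its group.

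Nqo1, a quinone reductase often used as a readout of NRF2 (ENSMUSG00000003849, mm10 chr8:107388225-107403206, minus strand), was weakly expressed, at 1 to 54 counts per library. In control Flcn it was at 0.476, 5.45, 4.25, 2.72 and 3.82 CPM, the lowest resting on 1 count. In Flcn KO it was at 4.82, 8.90, 5.15, 9.41 and 7.33 CPM. The Flcn KO libraries lay higher with overlap, for a log2 fold change of 1.09 (SE 0.37, p = 0.0095, adjusted p = 0.34, edgeR), or 0.85 without control 1. The Flcn/Tfeb cross gave −0.19 (SE 0.43, adjusted p = 0.91), with 3.18 to 5.18 CPM in the DKO libraries and 3.50 to 6.90 CPM in the controls. The Flcn/Tfe3 cross gave 0.35 (SE 0.26, adjusted p = 0.83, edgeR). This was 0.19 without control Flcn/Tfe3 1 and 0.66 without control Flcn/Tfe3 2, neither called. The difference between the Flcn/Tfeb and Flcn effects on Nqo1 was −1.29 (SE 0.61, p = 0.046, adjusted p = 0.82), in a comparison that called 0.0153% of 13049 genes, 5.95% having an unadjusted p under 0.05. Without control Flcn/Tfeb 3 it was −0.81 (p = 0.26). At this depth the difference was not resolved from the spread of the libraries.

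Gclc and Gclm encode the catalytic and the modifier subunit of glutamate-cysteine ligase, which makes the step that limits glutathione synthesis. Gclc (ENSMUSG00000032350, mm10 chr9:77754535-77794485, plus strand) ran from 48.6 to 69.4 CPM in Flcn KO and from 48.1 to 69.3 CPM in control Flcn, almost the same range. Its log2 fold change was −0.05 (SE 0.14), 0.24 (SE 0.17) and 0.18 (SE 0.11) in Flcn KO, Flcn/Tfeb DKO and Flcn/Tfe3 DKO. Gclm (ENSMUSG00000028124, mm10 chr3:122245557-122270732, plus strand; 2 annotated genes overlap it) was at 114 to 134 CPM in Flcn KO and 118 to 142 CPM in control Flcn. Its log2 fold change was −0.06 (SE 0.10), −0.35 (SE 0.19) and 0.12 (SE 0.10) in the same order. None of these 6 differences had an adjusted p under 0.78 (edgeR). The effect on Gclm in Flcn/Tfe3 DKO less that in Flcn/Tfeb DKO was 0.45 (SE 0.20, p = 0.033, adjusted p = 0.38), in a comparison that called 0.022% of 13637 genes, 12.2% having an unadjusted p under 0.05.

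Gsta4, an alpha-class transferase with activity toward the lipid aldehyde 4-hydroxynonenal (ENSMUSG00000032348, mm10 chr9:78182774-78209349, plus strand), did not follow Gstm1. It ran from 66.9 to 86.0 CPM in control Flcn and from 70.9 to 101 CPM in Flcn KO, with a log2 fold change of 0.23 (SE 0.12, p = 0.074, adjusted p = 0.60, edgeR). It was −0.08 (SE 0.16) in the Flcn/Tfeb cross and 0.02 (SE 0.09) in the Flcn/Tfe3 cross, where it stood at 83.8 to 139 CPM in the DKO libraries and 73.7 to 116 CPM in the controls.

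Hmox1, the inducible heme oxygenase (ENSMUSG00000005413, mm10 chr8:75093621-75100589, plus strand), was at 5.99 to 37.1 CPM over all libraries. The log2 fold change was 0.26 (SE 0.26), −0.03 (SE 0.24) and −0.18 (SE 0.27) in Flcn KO, Flcn/Tfeb DKO and Flcn/Tfe3 DKO, each smaller than or about its error. Flcn/Tfe3 DKO 2 stood at 37.1 CPM where the other 5 DKO libraries of set B were at 10.9 to 16.3 CPM, and without it the log2 fold change of that cross was −0.37 (SE 0.22, p = 0.12). Nfe2l2 (ENSMUSG00000015839, mm10 chr2:75675513-75704641, minus strand), whose messenger RNA need not follow the NRF2 protein since KEAP1 acts on the protein, was at 107 to 136 CPM in Flcn KO and 92.7 to 166 CPM in control Flcn. Its highest control libraries were 4 and 5, at 151 and 166 CPM, the controls of low mitochondrial share. Its log2 fold change was −0.01 (SE 0.15), 0.08 (SE 0.19) and 0.20 (SE 0.10, p = 0.066) in the 3 crosses, and 0.28 in the Flcn cross without those controls.

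**Figure D2:**
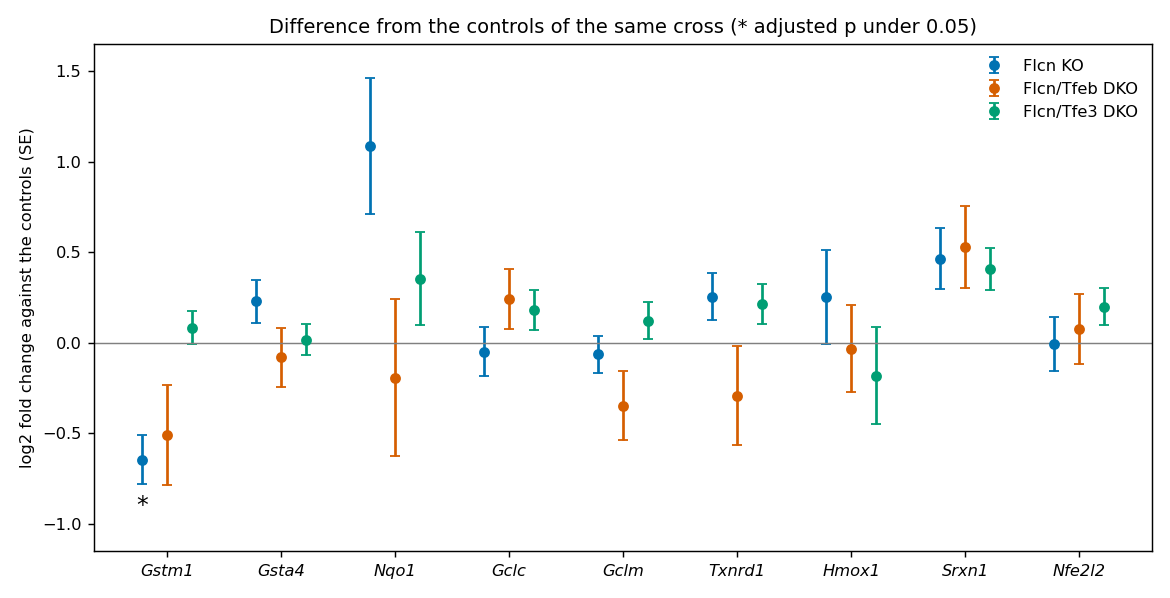
Log2 fold change of each of the 9 genes against the controls of the same cross, with its SE (edgeR; blue, Flcn KO; orange, Flcn/Tfeb DKO; green, Flcn/Tfe3 DKO; asterisk, adjusted p under 0.05). Gstm1 in Flcn KO (−0.65) bears the only asterisk, and Srxn1 lies between 0.41 and 0.53 in all 3 crosses.

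Counted together, the 9 genes moved in no common direction in the Flcn cross. There 5 of the 9 had a log2 fold change above 0 (median 0.23; all genes tested, −0.01), and 3 had an unadjusted p under 0.05, Nqo1 and Srxn1 higher and Gstm1 lower, beside 9.07% of all genes. In the Flcn/Tfeb cross 3 of 9 were above 0 (median −0.08; all genes, −0.02) and 1, Srxn1, had an unadjusted p under 0.05, beside 5.07% of all genes. None was called there, nor was any of the 12469 genes tested (0%) by edgeR or by DESeq2, and 632 genes had an unadjusted p under 0.05. In the Flcn/Tfe3 cross 8 of 9 were above 0 (median 0.18; all genes, 0.01) and Srxn1 alone had an unadjusted p under 0.05, beside 7.15% of all genes. None of the 9 was called in the Flcn/Tfe3 cross by edgeR or by DESeq2, where edgeR called 0.385% of the 12456 genes tested. Over a whole cross, no member other than Srxn1 in the Flcn/Tfeb cross had groups that did not overlap. In the Flcn cross, where no member was so separated, that held upward for 1.69% and downward for 0.696% of genes.

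The wider NRF2 pathway list holds 100 genes including the 9, of which 83, 84 and 86 could be tested for Flcn KO, Flcn/Tfeb DKO and Flcn/Tfe3 DKO. No gene of it other than Gstm1 was called in any cross. An unadjusted p under 0.05 was found for 6, 5 and 5 of them, which is 7.23%, 5.95% and 5.81%, near the shares over all genes above. The median log2 fold change of the list was −0.01, −0.12 and 0.02. For Flcn/Tfe3 less Flcn/Tfeb, 15 of 87 genes of the list had an unadjusted p under 0.05 (17.2%, 14 higher). None was called, and 12.2% of all genes had such a p (1659 of 13637, edgeR interaction). Over all genes this count hung on 1 control, being 569 of 13921 without control Flcn/Tfeb 3. With the mitochondrial share as a covariate it was 512 of 13637. The count within the list is not given for those fits, so no difference of the list is read from this comparison. For Flcn/Tfeb less Flcn and Flcn/Tfe3 less Flcn the share of the list was 5.88% and 3.45%, beside 5.95% and 7.40% of all genes.

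Glutathione transferases were examined beside Gstm1. In the Flcn cross 17 were tested, 9 were above 0, and 3 had an unadjusted p under 0.05, all lower: Gstm1, Gsta2 and Gstcd. Of all genes, 9.07% had such a p, 455 of the 11932 tested being lower. Gsta2, an alpha-class transferase, had a log2 fold change of −0.40 (SE 0.12, p = 0.0046, adjusted p = 0.27, edgeR) in the Flcn cross, −0.22 (SE 0.22) in the Flcn/Tfeb cross and −0.15 (SE 0.11) in the Flcn/Tfe3 cross. The other mu-class genes tested in the Flcn cross were Gstm2, Gstm4, Gstm5 and Gstm7. They lie beside Gstm1 and share sequence with it, so reads could be lost or misplaced among them. In Flcn KO they were at −0.20, −0.14, −0.20 and −0.50, without a call. They were at −0.38, −0.40, −0.37 and −0.39 in Flcn/Tfeb DKO, also without a call. In Flcn/Tfe3 DKO, Gstm4, Gstm5 and Gstm7 were at 0.06, −0.06 and −0.37 (Gstm7 p = 0.076, adjusted p = 0.73, edgeR) and Gstm2 at −0.00029. For Flcn/Tfe3 less Flcn/Tfeb, 19 transferases were tested, Gstm6 of the mu class among them. An unadjusted p under 0.05 (edgeR interaction) was found for 3, Gstm1, Gstm6 and Gsto1, all higher and none called. That is 15.8%, beside 12.2% of all genes.

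Genes of NADPH supply, which feeds both the glutathione and the thioredoxin system, were below 0 for 6 of 6 genes in the Flcn cross (median −0.16) and 6 of 6 in the Flcn/Tfeb cross (median −0.40), and for 4 of 6 in the Flcn/Tfe3 cross. Over all genes tested, 48.5%, 47.9% and 51.9% were above 0 in these crosses. Their smallest p was that of Tkt, a transketolase of the pentose phosphate pathway, in the Flcn/Tfeb cross (−0.60, SE 0.19, p = 0.0085, adjusted p = 0.80, edgeR). Of the genes that act on superoxide and hydrogen peroxide, Sod3, the extracellular dismutase, had −1.43 (SE 0.47, p = 0.012, adjusted p = 0.80) in the Flcn/Tfeb cross. None of the 4 of this group was above 0 in the Flcn cross (median −0.09), 1 was in the Flcn/Tfeb cross and 4 were in the Flcn/Tfe3 cross. Sod2, the mitochondrial dismutase, had 0.29 (SE 0.11, p = 0.013, adjusted p = 0.45) in the Flcn/Tfe3 cross. Sqstm1, whose p62 protein binds KEAP1, had 0.28 (SE 0.11, p = 0.013, adjusted p = 0.45) there, and Abcc3, an efflux transporter, 1.15 (SE 0.46, p = 0.031, adjusted p = 0.80) in the Flcn/Tfeb cross. The 10 tested genes of glutathione synthesis and recycling had medians of −0.11, −0.27 and 0.04 for Flcn KO, Flcn/Tfeb DKO and Flcn/Tfe3 DKO, with 1, 2 and 5 of them above 0 and no unadjusted p under 0.05. The regulators, KEAP1, CUL3, BACH1 and the small MAF proteins among them, had medians of −0.04, 0.05 and 0.05. All these values of the Flcn/Tfeb cross rest on 3 controls, control 3 being that of low mitochondrial share. They are not given without it.

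**Figure D3:**
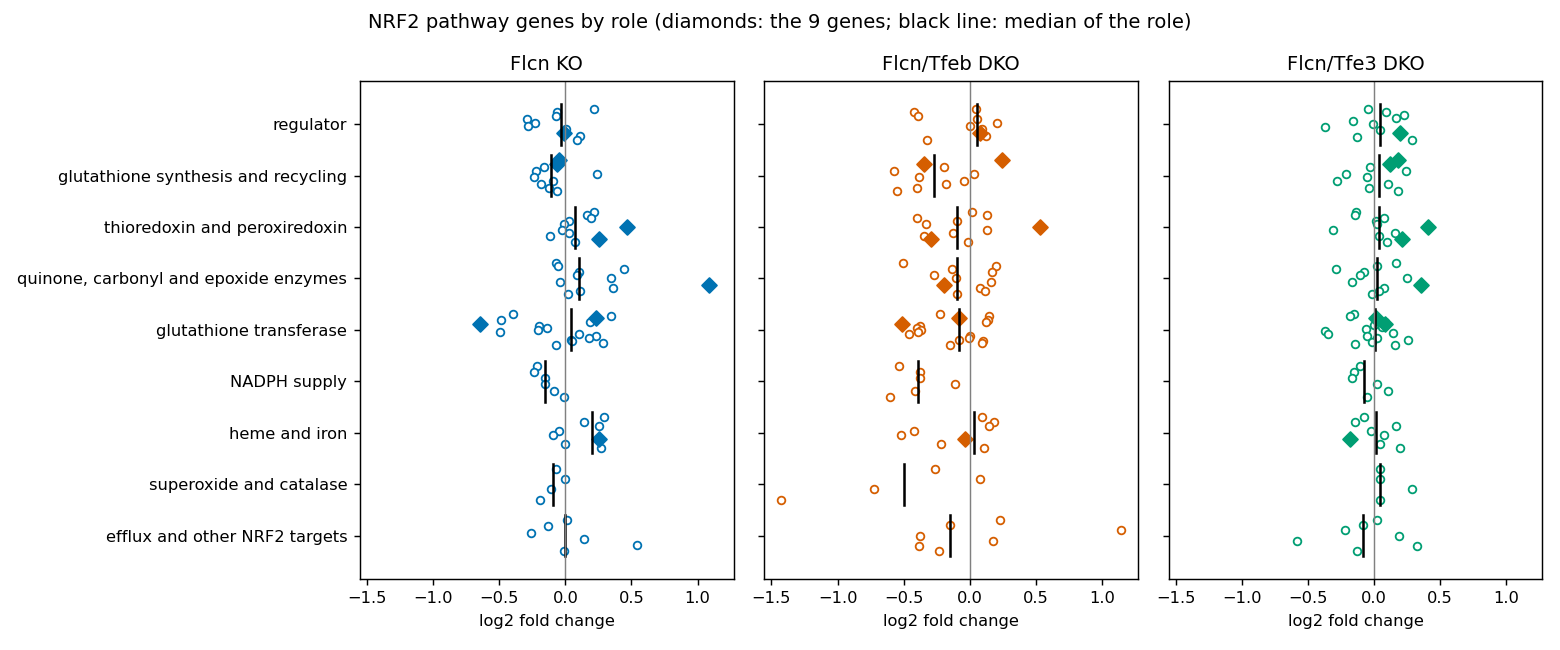
Log2 fold change of the tested genes of the NRF2 pathway list in each cross, by role (points, genes; diamonds, the 9 genes; black line, median of the role). Most roles straddle 0. The 6 genes of NADPH supply lie below 0 in Flcn KO and in Flcn/Tfeb DKO, as do the 4 of superoxide and catalase and all but 1 of the 10 of glutathione synthesis and recycling in Flcn KO.

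In set C taken alone, 5 of 85 pathway genes tested were called (5.88%), beside 4.68% of the 12169 genes tested, 460 of whose 569 calls were lower. The 5 were all lower: Txn1 (−0.77), Prdx1 (−0.53), Gpx1 (−0.71), Gpx4 (−0.98) and Esd (−0.52), with adjusted p from 0.029 to 0.043 (edgeR). These were named after their values were seen, and none of them is among the 9 genes. None of them was called in set B alone or over both sets. In set C the mitochondrial share was 3.01% to 7.80% in controls and 2.72% to 4.27% in DKO libraries, and reads on no feature made up 8.78% to 18.4% and 7.92% to 10.5%. Red blood cell markers had a median sum of 3586 CPM in the controls of set C and 1627 CPM in its DKO libraries. The part of these differences in the set C calls was not tested.

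In whole kidney, fewer cells of a type and less RNA per cell cannot be told apart. The 10 proximal tubule markers summed to 3032 to 3700 CPM in Flcn KO and 3324 to 4444 CPM in control Flcn, beside the fall of Gstm1. Of them 9 had a log2 fold change below 0, 3 had an unadjusted p under 0.05, and 1, Pck1, was called (−0.83, adjusted p = 0.0092, edgeR), beside 9.07% and 0.52% of all genes in that cross. The 8 markers of Cre-expressing tubules summed to 1857 to 2390 CPM in Flcn KO and 1674 to 2173 CPM in control Flcn, with 5 of 8 above 0. Umod was called higher (1.0, adjusted p = 4.0e-04), while Calb1 (−0.68, p = 0.0011, adjusted p = 0.11) and Aqp2 (−0.48, p = 0.0026, adjusted p = 0.20) had an unadjusted p under 0.05 in the other direction. In the Flcn/Tfe3 cross, where Gstm1 gave no difference, proximal tubule markers summed to 2673 to 3425 CPM in DKO and 3233 to 3738 CPM in control in set B, and to 2618 to 3347 and 3174 to 3585 CPM in set C, with 8 of 10 below 0. Pck1 (−0.65, adjusted p = 0.029, edgeR) and Umod (0.71, adjusted p = 0.00022) were called there too, in the same directions. Of the 8 Cre-expressing tubule markers only 3 were above 0 in that cross (median −0.02). An unadjusted p under 0.05 was found for 2 higher markers, Umod and Hsd11b2. It was also found for 1 lower marker, Aqp2 (−0.40, p = 0.0018, adjusted p = 0.21, edgeR), beside 7.15% of all genes. In the Flcn/Tfeb cross Pck1 was at −0.22 and Umod at −0.24, without a call. There 1 of the 10 proximal tubule markers was above 0 (median −0.16), and 0 had an unadjusted p under 0.05. Of the 8 Cre-expressing tubule markers 2 were above 0 (median −0.20), and 1, Hsd11b2, had such a p (−0.84, p = 0.025, adjusted p = 0.80, edgeR). Of all genes in that cross, 5.07% had such a p. The 5 nephron progenitor markers had a median sum of 37.8 CPM in Flcn KO and 48.0 CPM in control Flcn. Of the 4 tested, 2 were above 0, Meox1 (0.29 on the log2 scale) and Crym (0.09). Six2 (−1.0, p = 0.034, edgeR) and Eya1 (−0.70, p = 0.018) were lower with an unadjusted p under 0.05, neither called. Of the 6 stroma markers 2 were above 0 (median −0.13). Pdgfrb (−0.51, p = 0.0068, edgeR) and Pdgfra (−0.25, p = 0.048) were lower with an unadjusted p under 0.05, also without a call. The 5 podocyte markers summed to 309 to 365 CPM in Flcn KO and 377 to 402 CPM in control Flcn, where 5 of 5 were below 0, 1 (Podxl) had an unadjusted p under 0.05 and none was called. The 7 myeloid markers, cells that can express Hmox1, summed to 120 to 138 CPM in Flcn KO and 107 to 177 CPM in control Flcn. In the Flcn/Tfeb cross 6 of 6 tested were above 0 (median 0.37), with Cd74 at 1.98 (p = 0.022) and C1qa at 0.72 (p = 0.031), neither called. Of the 5 endothelial markers 4, 1 and 4 were above 0 in the Flcn, the Flcn/Tfeb and the Flcn/Tfe3 cross, none called. Red blood cell markers in the Flcn/Tfe3 cross were below 0 for 5 of 5 genes tested, each with an unadjusted p under 0.05 and none called (median −0.64). By set, their median sum was 4724 CPM in DKO and 4554 CPM in control in set B, and 1627 and 3586 CPM in set C, so the lower level was seen in set C. In the other crosses 5 of 5 were above 0, with medians of 0.37 (Flcn) and 0.18 (Flcn/Tfeb) and no unadjusted p under 0.05. None of these lists had a marker at 0 in every library. The part of cell makeup in the values of the 9 genes was not tested.

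To find which genes varied most like Gstm1, each library's log2 CPM was expressed as a deviation from its own controls (of that cross and set) and correlated with that of Gstm1 over the 35 libraries for 11732 genes. The highest r belonged to Ctdsp2, a phosphatase of the RNA polymerase II tail (0.85), Sox9, a transcription factor of developing tubules (0.83), Osr2, a zinc finger factor of the kidney (0.83), Mb21d2 (0.83) and Vil1, villin of the brush border (0.81). The lowest r belonged to Cd63, a tetraspanin of late endosomes and lysosomes (−0.82), and to Atp6v1f and Atp6v0b, subunits of the vacuolar proton pump (both −0.82). The 5th and 95th percentiles over all genes were −0.63 and 0.60. In Flcn KO, Atp6v0b and Atp6v1f had log2 fold changes of 0.73 (SE 0.21, adjusted p = 0.18, edgeR) and 0.46 (SE 0.13, adjusted p = 0.15), and Osr2 −0.78 (SE 0.21, adjusted p = 0.16).

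None of the other 8 genes was near Gstm1 by this measure. Gclm stood at r = 0.45, Nfe2l2 at 0.38, Txnrd1 at 0.26 and Gclc at 0.18. Gsta4 stood at −0.22, Nqo1 at −0.24, Hmox1 at −0.27 and Srxn1 at −0.43. Among the transferases Gstm2 was the most like, at 0.64. These values share libraries, and the deviation of Gstm1 itself had r = −0.58 with that of the mitochondrial share, as had Ctdsp2 at −0.73 and Cd63 at 0.73. Without the 3 controls of low mitochondrial share (32 libraries) r was 0.67 for Ctdsp2, −0.57 for Cd63, and among the members 0.22 for Gclm, 0.0058 for Nfe2l2, −0.19 for Txnrd1, 0.17 for Gclc, −0.22 for Gsta4, −0.45 for Nqo1, −0.33 for Hmox1 and −0.28 for Srxn1. Txnrd1 thus changed sign and Nfe2l2 came close to 0. With all 35 libraries centred on their own group instead, r was 0.29 for Gclm, 0.46 for Nfe2l2, 0.44 for Txnrd1 and 0.13 for Gclc. It was 0.06 for Gsta4, 0.10 for Nqo1, −0.10 for Hmox1 and −0.25 for Srxn1, so Gsta4 and Nqo1 changed sign by this centring. The part of the mitochondrial share in these correlations was not tested further.

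**Figure D4:**
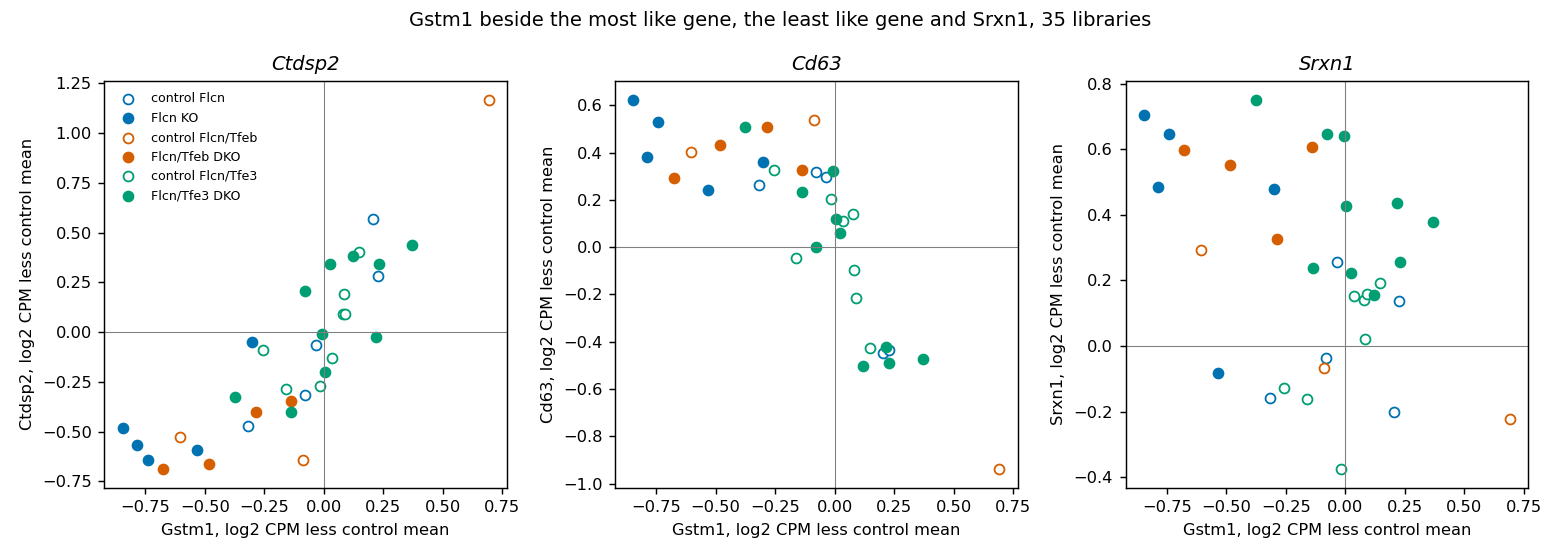
Deviation in log2 CPM from the matched control mean, Gstm1 on the horizontal axis and Ctdsp2, Cd63 or Srxn1 on the vertical axis, for 35 libraries (open, controls; filled, KO or DKO). Ctdsp2 rises with Gstm1 (r = 0.85) and Cd63 declines (r = −0.82), with control Flcn/Tfeb 3 at the far right of each panel.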

How the data were processed

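Kidney RNA at postnatal day 2 was sequenced by the authors as 35 QuantSeq 3′ mRNA libraries. The deposited values are counts of reads per gene: the authors trimmed reads with bbduk (the submitters' processing notes name Trim Galore), ran STAR against mm10 and used HTSeq-count, without normalization. A deposited percent column of multi-mapped reads (1 column) was at 0 or missing and was not used. Rows that name no gene stayed out of totals and tests: in 26 libraries, 33.7% to 49.4% of reads were multi-mapped and 7.92% to 19.9% fell on no feature. Of the genes, 99.6% are in GENCODE M21, which gave the coordinates. Groups were taken from the genotype labels. No pair among 63 within groups agreed within sampling noise (chi-square per degree of freedom 2.71 to 39.1).

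Each comparison was fitted over all genes in edgeR 4.0.16 (R 4.3.3; filterByExpr, TMM, quasi-likelihood F test, two-sided, Benjamini-Hochberg), with the set as a term for the Flcn/Tfe3 cross, and crosses were compared as interactions. Calls required an adjusted p under 0.05. The SE is the log2 fold change divided by the square root of F. CPM use TMM factors over 35 libraries, and log2 CPM a prior count of 2. Alternatives were DESeq2 1.42.0, RLE factors, no filter or a mean of 10 counts, 1 fit of all libraries, a replicate block, Xist as a covariate, single sets, and leaving out each library. Added after seeing the data were the mitochondrial share as a covariate and leaving out the controls in which it was low. In the Flcn and Flcn/Tfeb crosses only, a mitochondrial share under 5% was taken as low. Scripts were tested on simulated data. The members, the lists and the named genes (the 9 members; pathway genes called in any cross and the 3 with the smallest p in each; the 5 most and 3 least like Gstm1; Flcn, Tfeb and Tfe3) were chosen with earlier results of these data known.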

Additional observations from a re-analysis of the deposited data

Results flagged for a closer look

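Hmox1 stood at 37.1 CPM in Flcn/Tfe3 DKO 2 of set B, where the other 5 libraries of that group were at 10.9 to 16.3 CPM. Its gap to the nearest library was 0.79 of the range of the 6 libraries, above Dixon's 95% limit for that number. Of 54 groups of 4 to 6 libraries examined over the 9 genes, this was the 1 that passed, and chance alone gives about 1 in 20.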

How the results depend on the processing

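The fall of Gstm1 in Flcn KO kept its direction under every alternative run and lost its call with all 35 libraries in 1 fit (adjusted p = 0.054, edgeR) and without both control Flcn libraries of low mitochondrial share (adjusted p = 0.17). In those, 0 members and 0 pathway genes were called, and leaving out each library in turn gave 0 to 1 of either and 37 to 58 genes in all, against 62. DESeq2 gave 116 genes there, no filter 95 and the mitochondrial covariate, added after seeing the data, 147. The Flcn/Tfeb cross gave 3 genes with all libraries in 1 fit and 0 to 1 with a library left out. The Flcn/Tfe3 cross, with 48, gave 93 by DESeq2, 26 with Xist, 29 with no set term, 28 with the mitochondrial share, 8 in set B, 569 in set C (5 of the pathway) and 30 to 53 with a library left out. For Flcn/Tfeb less Flcn, with 2, the counts were 8 by DESeq2, 5 with the mitochondrial share, 0 without both controls and 0 to 3 with a library left out. For Flcn/Tfe3 less Flcn, with 0, set C gave 459 of 12826 genes (3.58%), 346 of them lower. Of the pathway it gave 6 of 86 (6.98%), 1 of them a member, Gstm1. Gstm1 and Keap1 were higher there, and Prdx1, Prdx2, Rbx1 and Gpx1 lower. For Flcn/Tfe3 less Flcn/Tfeb, with 3, the counts were 14 by DESeq2, 0 with the mitochondrial share, 0 in set B, 1 in set C and 1 to 82 with a library left out (82 without control Flcn/Tfeb 2), and 0 to 1 of the pathway. Of the 5 genes most like Gstm1, 1 was shared with centring on the own group, 3 with Spearman's rho and 2 without the 3 controls. The cause was not tested.

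Replicate numbers are shared between groups, but same-numbered libraries did not deviate together (r from −0.21 to 0.30 in the Flcn, −0.09 to 0.11 in the Flcn/Tfeb and −0.37 to 0.27 in the Flcn/Tfe3 cross). A fit with the replicate block called 48, 0 and 2 genes, and Gstm1 in the Flcn cross had an adjusted p of 0.025 (edgeR).

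Among the differences examined here for each alternative, those whose log2 fold change crossed 0 were not called. Interactions not given above are left out, except that of Nqo1 for Flcn/Tfe3 less Flcn/Tfeb, which was 0.55 (SE 0.52) in the main fit. In the Flcn cross Nfe2l2 was 0.019 with the replicate block, 0.093 with the mitochondrial share and 0.28 without both controls. In the Flcn/Tfeb cross the mitochondrial share gave 0.17 for Gstm1, 0.38 for Nqo1, 0.41 for Txnrd1 and 0.23 for Hmox1, and the replicate block 0.071 for Hmox1. In the Flcn/Tfe3 cross Gstm1 was −0.089 in set B. Gsta4 was −0.0005 with RLE factors and −0.044 in set C. Hmox1 was 0.020 with no set term, 0.023 with the mitochondrial share and 0.22 in set B. Gstm1 for Flcn/Tfeb less Flcn was −0.010 without both controls, Srxn1 for Flcn/Tfe3 less Flcn 0.045 in set B, and Nqo1 for Flcn/Tfe3 less Flcn/Tfeb −0.29 with the mitochondrial share. With each library left out in turn, the Flcn cross gave −0.12 to 0.019 for Gclc and −0.10 to 0.11 for Nfe2l2. The Flcn/Tfeb cross gave −0.34 to 0.27 for Nqo1, −0.49 to 0.16 for Txnrd1, −0.15 to 0.095 for Hmox1 and −0.087 to 0.28 for Nfe2l2, and the Flcn/Tfe3 cross −0.018 to 0.040 for Gsta4. Flcn/Tfeb less Flcn gave −0.12 to 0.59 for Gstm1 and −0.051 to 0.22 for Srxn1, and Flcn/Tfe3 less Flcn −0.17 to 0.011 for Srxn1. Leaving out 2 of the 7 Flcn/Tfeb libraries took Nqo1 below the filter, so it had 5 such fits.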
